A study of Mus musculus with 12 samples.

Results

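The genes described here form the ATF4 and amino acid response, a set of 32 named genes taken from general knowledge of the pathway: transcription factors and regulators around ATF4, enzymes of amino acid and one-carbon synthesis, amino acid transporters, and a few other targets. The set was chosen with earlier results of these data known, so its counts beside all genes are a description and not an independent test. A gene was included where a transcript cluster of the array carried its symbol alone in the platform annotation. This held for 31 of the 32 names, out of 19938 genes with a symbol of their own, and Pycr1 was not analysed here. Each of the 31 was represented by 1 transcript cluster, and all 31 passed the filter on low values. All 31 also lay above the array background on every array, so the differences given below are measured differences and not bounds. The members had a median level of 9.64 (log2) and a median SD within groups of 0.074. Over all genes tested these were 7.90 and 0.097. The shares of all genes given below are therefore not those of genes matched to the members in level or spread.

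The arrays measured RNA from cultured primary keratinocytes, the cells that build the epidermis, of FVB/N mice. There were 4 groups of 3 arrays: wild-type control cells, wild-type cells transduced with v-rasHa (RAS cells), control cells of MT-HGF mice, and mock-transduced MT-HGF cells given AG1478 for 24 h. The oncogene v-rasHa is a viral, constitutively active form of the small GTPase Hras, and MT-HGF is a transgene, named for a metallothionein promoter, for hepatocyte growth factor (HGF), which activates the receptor kinase MET. AG1478 is a small-molecule inhibitor of EGFR, the receptor of epidermal growth factor. A transduction time of 3 days is given for all of the first 9 arrays, without saying what the control cells received, so that v-rasHa and the transduction step cannot be told apart. The AG1478-treated arrays came from a later submission, with cells kept in 8% serum and other wording for extraction and labelling, and vehicle-treated arrays were not analysed here. AG1478, culture conditions and submission therefore cannot be told apart in any comparison with these 3 arrays. The replicates of the first 3 groups are called biological, but nothing says that they came from separate animals or cultures, and p-values then measure only the spread between these arrays.

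ATF4 is a transcription factor whose mRNA is translated more when the initiation factor eIF2 is phosphorylated by kinases that sense amino acid shortage, unfolded protein, double-stranded RNA or lack of heme. Growth factor signalling through mTORC1 can also raise ATF4. With partners of the C/EBP family it binds a composite DNA element and induces genes for amino acid uptake, for synthesis of serine, glycine, asparagine, proline and cysteine, and for feedback on the pathway. Because much of its control is translational, the level of Atf4 mRNA is only part of the measure of ATF4 activity, and protein was not measured here.

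The 12 arrays had medians of 6.77 to 6.84 (log2), and within a group the correlation between arrays was 0.992 or higher over the 15868 genes tested. The transgene was seen where the labels place it: Hgf had means of 4.91 in wild-type, 5.16 in RAS, 10.68 in MT-HGF and 10.74 in AG1478-treated cells. All 10 keratinocyte markers, Krt5 and Krt14 among them, lay above background on every array, with a mean level of 11.86 to 11.92 on the 12 arrays. All 9 melanocyte markers and 10 or 11 of 12 fibroblast markers were also above background on every array of each group, so the cultures held RNA of these types as well. The fibroblast markers had a mean level of 9.07 to 9.12 on the wild-type arrays, 8.38 to 8.41 on the RAS arrays, 8.63 to 8.72 on the MT-HGF arrays and 8.67 to 8.71 on the AG1478-treated arrays. Melanocyte markers lay at 9.79 to 10.01, 9.95 to 10.09, 9.54 to 9.73 and 9.56 to 9.66. In each group 3 of 9 leukocyte markers were above background on all of its arrays, Cd68 and Cd3e among them. These were not necessarily the same 3 in each group. Ptprc, Itgam, Itgax, Cd207 and Adgre1 were not above background on any array. Cd68 was 2.44-fold higher in RAS and 2.42-fold higher in MT-HGF than in wild-type cells, and Lyz2, above background in wild type alone, was at least 2.67-fold and 2.88-fold lower. Of 7 endothelial markers 2 or 3 were above background on every array of a group, and Cdh5, Kdr and Emcn on none. The part of these markers in the members' values was not tested.

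The DNA element of ATF4 and C/EBP factors has the core letters TGATGNAA, read here on both strands (TTNCATCA on the other) in the 300 bases around each RefSeq start, 250 before it and 50 from it on. Promoters of 26 of the 31 members matched by symbol, 32 promoters in all. The core stood in 7 of these 32 (21.9%), 1 each for Asns, Chac1, Nupr1, Slc1a4, Slc7a11, Trib3 and Vldlr, and in 1304 of all 32851 promoters of the table (3.97%). Stretches are shown for the 5 of these members whose values are also followed array by array. Of the other members followed so, Atf4, Ddit3, Atf5, Ppp1r15a and Stc2 had no core in their promoters. Cth and Slc7a3 had no promoter matched by symbol. Whether the core goes with the size of a member's change was not tested. The stretches run 5′ to 3′ on the gene's strand, RefSeq, build GRCm38.p6, with the core in capitals.
Asns (chr6:7693210-7693279, minus strand, positions -70 to -1): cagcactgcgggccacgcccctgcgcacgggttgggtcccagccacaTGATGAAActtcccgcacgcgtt
Slc7a11 (chr3:50443634-50443703, minus strand, positions -90 to -21): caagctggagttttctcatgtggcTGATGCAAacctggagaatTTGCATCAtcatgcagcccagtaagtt
Nupr1 (chr7:126625541-126625610, minus strand, positions -140 to -71): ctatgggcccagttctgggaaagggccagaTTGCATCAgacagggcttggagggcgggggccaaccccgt
Slc1a4 (chr11:20332706-20332735, minus strand, positions -22 to 8): tccagcgtgcctcctgcgTTGCATCAtctc
Trib3 (chr2:152344028-152344057, minus strand, positions 4 to 33): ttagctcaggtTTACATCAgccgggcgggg
Slc7a11 carried the core once on each strand. Its stretch lies inside the gene record, which also has a start further upstream. Positions count from the start as 1, with no position 0, and in Trib3 the core lay just after the start. A match of letters is a description of these sequences and not a binding site.

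MT-HGF cells held the highest group mean for 21 of the 31 members, and AG1478-treated cells the lowest for 21. Against wild type, 20 members were higher in MT-HGF cells and 2 lower, where 17.1% of all genes tested were called higher and 23.9% lower. A gene was called at a Benjamini-Hochberg adjusted p under 0.05 in limma over all genes. In either direction this was 22 of 31, against 40.9% of all genes, and the arrays of both groups did not overlap for 23 of 31, against 50.4%. The median of the members' differences was 0.41 log2 units, and that of all genes -0.03. The largest rises were those of the cystine transporter gene Slc7a11 (3.89-fold), the stress regulator gene Nupr1 (3.66-fold) and Cth, which encodes the cysteine-forming enzyme cystathionine gamma-lyase (2.64-fold). The falls were those of Slc1a4 (1.21-fold) and Atf5 (1.20-fold). This comparison addressed the effect of HGF overproduction. It was made within the first submission, where fibroblast markers fell for 9 of 12 and rose for 3 and melanocyte markers fell for 6 of 9, and their part in these values was not tested. In such bulk RNA, fewer cells of a type and less RNA per cell cannot be told apart.

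In RAS cells the members did not share a direction. Of 31, 8 were higher and 12 lower than in wild type, where 12.6% of all genes were called higher and 19.9% lower. That made 20 members called, against 32.5% of all genes, and 24 whose arrays did not overlap between the groups, against 42.9%. With arrays weighted by their quality in limma, 24 members and 51% of all genes were called. The members' median difference was -0.10 log2 units against -0.02 for all genes. Nupr1 rose most (2.28-fold), followed by Ppp1r15a and Slc7a11. The neutral amino acid transporter gene Slc1a4 fell 1.91-fold and the pseudokinase gene Trib3 1.62-fold. Fibroblast markers fell for 8 of 12 and rose for 0, and melanocyte markers gave 0 calls of 9 in limma (0 higher and 0 lower). Their part in the members' values was not tested.

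Set directly against RAS cells, MT-HGF cells had 23 members higher and 1 lower, where 13.4% and 12.6% of all genes were called in those directions, 26% in all. The arrays of both groups were apart for 28 members, against 39.2% of all genes. The median difference was 0.40 log2 units for the members and -0.02 for all genes. Stc2, which encodes the secreted glycoprotein stanniocalcin 2 (2.84-fold), Slc7a11 (2.80-fold) and Cth (2.14-fold) differed most, and the single fall was that of Ppp1r15a (-0.24 ± 0.07 log2 units, SE, n = 3 arrays per group; adjusted p = 0.0201). Fibroblast markers were higher for 6 and lower for 2 of 12 in this comparison, Dcn by 3.22-fold, and melanocyte markers lower for 7 of 9, and their part in the members' values was not tested. For Ppp1r15a, leaving out RAS array 3, MT-HGF array 1 or MT-HGF array 2 ended this call, at adjusted p = 0.0971, 0.0634 and 0.0782.

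All member calls after AG1478 were in 1 direction. Of 31, 26 were lower in treated than in untreated MT-HGF cells and 0 were higher, where 9.91% of all genes were called lower and 6.57% higher. The arrays of the 2 groups did not overlap for 29 of the 31, against 34.2% of all genes. The median difference was -0.57 log2 units for the members and 0.02 for all genes. Slc7a3, a cationic amino acid transporter gene, was 3.82-fold lower, Cth 3.33-fold, Stc2 2.70-fold and Mthfd2, a mitochondrial folate enzyme gene, 2.24-fold. The 5 members without a call were Slc7a11, Nupr1, Cebpb, Ppp1r15a and Cbs. Among genes above the array median on at least 3 arrays, a stricter filter, 22.2% were called in either direction, against 16.5% with the filter used throughout. Keratinocyte, fibroblast and melanocyte markers had 3 of 10, 2 of 12 and 0 of 9 called in limma in this comparison, and the fibroblast markers' mean levels on the treated arrays lay within the range of the untreated ones.

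Against wild type, AG1478-treated MT-HGF cells had 17 members lower and 5 higher, where 26.2% and 16.8% of all genes were called in those directions, 42.9% in all. The arrays were apart for 25 members, against 50.5% of all genes. This comparison shares the treated arrays with the previous one. Fibroblast markers were lower for 9 and higher for 3 of 12, and melanocyte markers lower for 6 of 9. Slc7a3 (2.87-fold), Slc1a4 (1.97-fold), Trib3 (1.89-fold), Vldlr (1.63-fold) and Atf5 (1.62-fold) lay furthest below wild type, and Slc7a11 (4.44-fold) and Nupr1 (3.28-fold) furthest above it. Against RAS cells, 15 members were lower and 5 higher, where 20.4% and 16.3% of all genes were called so, 36.7% in all, and the arrays were apart for 25 members, against 45.8% of all genes. There fibroblast markers were higher for 6 and lower for 3 of 12 and melanocyte markers lower for 7 of 9. The part of these markers in either comparison was not tested.

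**Figure D1:**
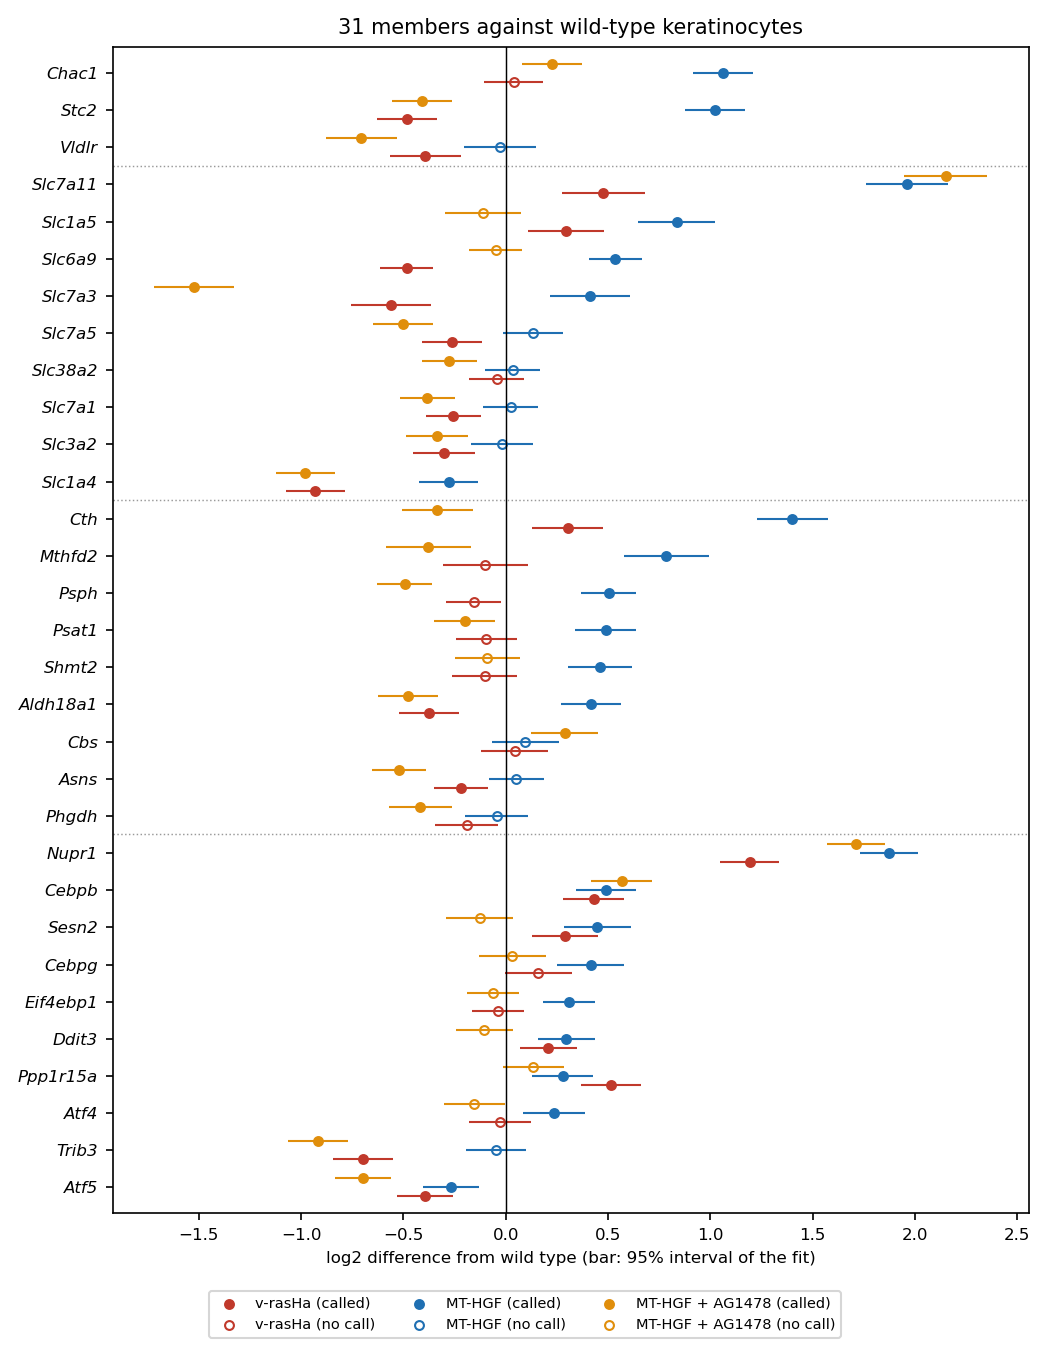
Log2 difference of each of the 31 members from wild-type keratinocytes (x axis) for v-rasHa, MT-HGF and AG1478-treated MT-HGF cells, with 95% intervals of the limma fit; filled points passed the adjusted p threshold and dotted lines part the regulators, enzymes, transporters and other targets. The 3 sets share the wild-type arrays; Slc7a11 and Nupr1 stand far to the right in both MT-HGF sets (1.71 to 2.15), and Slc7a3 far to the left after AG1478 (-1.52).

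Among the transcription factors and regulators, 8 of 10 were higher and 1 lower in MT-HGF than in wild-type cells, 5 higher and 2 lower in RAS than in wild-type cells, and 7 lower and 0 higher after AG1478. Over all genes the shares called higher and lower were 17.1% and 23.9%, 12.6% and 19.9%, and 6.57% and 9.91% in these 3 comparisons. Atf4 itself moved little. Its values were 9.43, 9.45 and 9.58 in wild-type, 9.41, 9.49 and 9.48 in RAS, 9.59, 9.78 and 9.80 in MT-HGF and 9.32, 9.32 and 9.36 in AG1478-treated cells. The MT-HGF arrays stood above all others, by a narrow margin for 1 of them, and the treated arrays below all others. The rise over wild type was 0.24 ± 0.07 log2 units (SE, n = 3 per group; adjusted p = 0.0129), and without wild-type array 2, MT-HGF array 2 or MT-HGF array 3 it was 0.22, 0.21 and 0.19 with adjusted p = 0.052, 0.0641 and 0.0622. Against RAS the difference was 0.26 ± 0.07 (adjusted p = 0.011), with 0.24 and 0.22 and adjusted p = 0.0597 and 0.0525 without MT-HGF array 2 or 3. After AG1478 Atf4 was 0.39 ± 0.07 log2 units below the untreated cells (-0.39; adjusted p = 9.68e-04), a call that held without any 1 array of the groups compared.

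Ddit3, which encodes the ATF4-induced factor CHOP, had values of 8.42, 8.23 and 8.30 in wild-type and 8.53, 8.47 and 8.56 in RAS cells. In MT-HGF cells it stood at 8.60, 8.65 and 8.58, and in treated cells at 8.15, 8.21 and 8.27. RAS and MT-HGF arrays all lay above the wild-type arrays, and the treated arrays overlapped with wild type. The difference was 0.29 ± 0.07 for MT-HGF with wild type (adjusted p = 0.0016), -0.40 ± 0.07 after AG1478 (adjusted p = 3.90e-04) and 0.21 ± 0.07 for RAS with wild type (adjusted p = 0.0215). The RAS call was lost without wild-type array 2 or 3 or RAS array 1 or 3, with differences of 0.17 to 0.20 and adjusted p between 0.0577 and 0.118.

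Atf5 encodes a relative of ATF4 that is under like translational control. It was highest in wild-type cells, at 10.03, 9.92 and 10.0005, followed by MT-HGF cells at 9.78, 9.64 and 9.73, RAS cells at 9.53, 9.62 and 9.62 and treated cells at 9.23, 9.29 and 9.33. No array of the other groups reached the wild-type arrays. It fell by 0.27 log2 units in MT-HGF cells (SE 0.06; adjusted p = 0.00298) and by 0.39 in RAS cells (adjusted p = 1.38e-04), and was lower by a further step after AG1478 (-0.43 ± 0.06; adjusted p = 1.48e-04). MT-HGF and RAS cells did not differ beyond the threshold for it (0.13, adjusted p = 0.167).

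Trib3, whose product binds ATF4 and limits its activity, was high in wild-type and MT-HGF cells and low in the other 2 groups. Wild-type cells had 9.46, 9.25 and 9.31 and MT-HGF cells 9.30, 9.32 and 9.26, against 8.68, 8.64 and 8.62 in RAS and 8.35, 8.51 and 8.41 in treated cells. The first pair of groups overlapped (difference -0.05, adjusted p = 0.665). RAS cells were lower than wild type by 0.70 log2 units (-0.70 ± 0.07; adjusted p = 5.28e-07), and AG1478-treated cells were lower than untreated ones by 0.87 (-0.87 ± 0.07; adjusted p = 1.76e-07). Treated cells also lay below RAS cells, with no overlap (-0.22 ± 0.07; adjusted p = 0.0178).

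Nupr1 encodes a small stress-induced chromatin-associated protein. Its values rose from 8.85, 8.80 and 8.84 in wild-type cells to 10.13, 9.91 and 10.03 in RAS and 10.68, 10.69 and 10.74 in MT-HGF cells, and stood at 10.51, 10.51 and 10.62 after AG1478. No group overlapped with another. The rise was 1.19 ± 0.07 log2 units in RAS (adjusted p = 4.45e-10) and 1.87 ± 0.07 in MT-HGF cells (adjusted p = 1.37e-12), while AG1478 gave -0.16 ± 0.07, with a 95% interval of -0.30 to -0.02 and an adjusted p of 0.121. Nupr1 thus stayed well above wild type in treated cells (1.71, adjusted p = 6.05e-12).

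Ppp1r15a, also called GADD34, encodes the phosphatase subunit that reverses eIF2 phosphorylation. It was highest in RAS cells, at 8.43, 8.36 and 8.56, then in MT-HGF cells at 8.19, 8.19 and 8.27 and treated cells at 8.09, 7.97 and 8.15, and lowest in wild-type cells at 7.96, 7.89 and 7.95. RAS was the only group whose arrays all exceeded those of the other 3. The rise over wild type was 0.51 ± 0.07 in RAS and 0.28 ± 0.07 in MT-HGF cells (adjusted p = 2.19e-05 and 0.00396).

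The other regulators were Cebpb, Cebpg, Eif4ebp1 and Sesn2. The C/EBP family gene Cebpb rose by 0.43 in RAS and 0.49 log2 units in MT-HGF cells, and stood at 0.08 after AG1478 with no call. Its relative Cebpg rose by 0.41 in MT-HGF cells (0.16 and no call in RAS) and fell by 0.38 after AG1478. Eif4ebp1, which encodes the translation inhibitor 4E-BP1, rose by 0.31 in MT-HGF cells and fell by 0.37 after AG1478, and Sesn2, a leucine sensor of the mTORC1 pathway, rose by 0.29 in RAS and 0.45 in MT-HGF cells and fell by 0.58 after AG1478. In treated cells Cebpg, Eif4ebp1 and Sesn2 lay at 0.03, -0.06 and -0.13 from wild type, with no call for any of the 3.

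**Figure D2:**
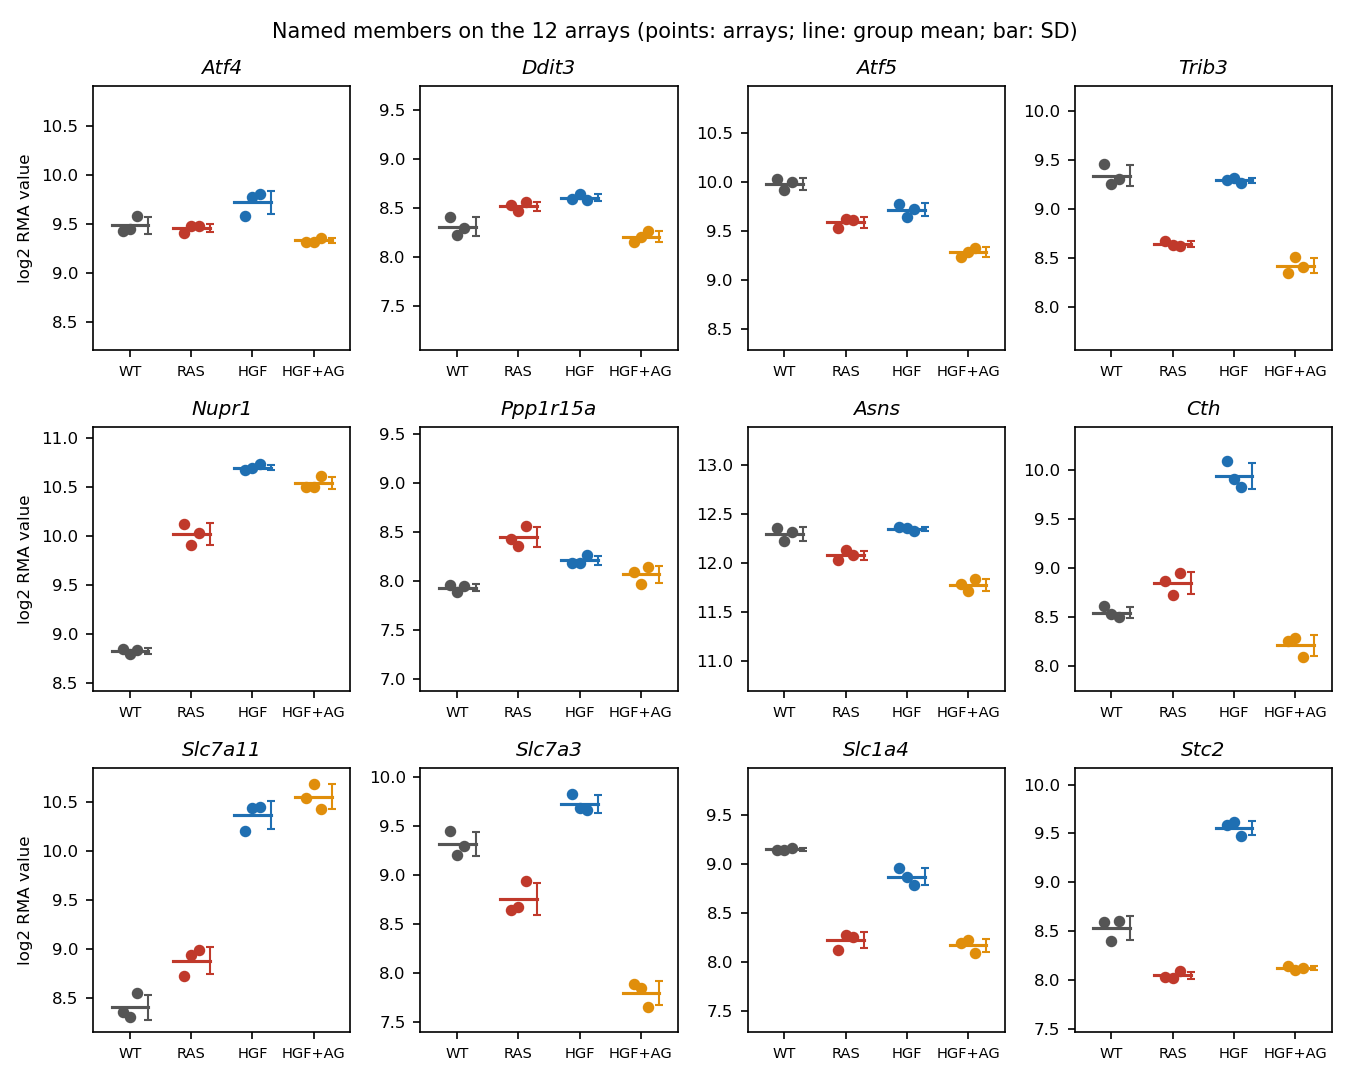
Log2 RMA values (y axis, each panel spanning the same number of log2 units) of 12 members on the 12 arrays, with points for arrays, a line for the mean and a bar for the SD of wild-type (WT), v-rasHa (RAS), MT-HGF (HGF) and AG1478-treated MT-HGF (HGF+AG) cells. Cth, Stc2 and Slc7a3 are high in MT-HGF cells and low after AG1478, whereas Slc7a11 and Nupr1 stay high, at means of 10.55 and 10.54.

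The enzymes of amino acid and one-carbon synthesis were higher for 6 of 9 and lower for 0 in MT-HGF cells. In RAS cells 1 was higher and 2 lower, and after AG1478 8 were lower and 0 higher. Of all genes 17.1%, 12.6% and 6.57% were called higher in these comparisons, and 23.9%, 19.9% and 9.91% lower. In RAS cells 6 of 9 enzymes had no call, so their share called was near the 32.5% of all genes. Asns, the asparagine synthetase gene and a standard reporter of the pathway, had values of 12.36, 12.22 and 12.31 in wild-type and 12.37, 12.36 and 12.33 in MT-HGF cells, which overlapped. RAS cells had 12.04, 12.13 and 12.08 and treated cells 11.79, 11.71 and 11.83, below both. The MT-HGF difference from wild type was 0.05 ± 0.06, with a 95% interval of -0.08 to 0.18, and AG1478 gave -0.57 ± 0.06 (adjusted p = 7.05e-06). The fall in RAS cells was small (-0.22 ± 0.06; adjusted p = 0.0127) and was lost without RAS array 1 (-0.20, adjusted p = 0.0521).

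Cth makes cysteine from cystathionine in the transsulfuration pathway. Its values were 8.61, 8.52 and 8.50 in wild-type, 8.86, 8.73 and 8.94 in RAS, 10.09, 9.91 and 9.83 in MT-HGF and 8.25, 8.28 and 8.09 in treated cells, with no overlap between any groups. It was higher by 1.40 ± 0.08 log2 units in MT-HGF (adjusted p = 5.02e-10) and by 0.30 ± 0.08 in RAS than in wild-type cells (adjusted p = 0.00866). After AG1478 it was lower by 1.73 (-1.73 ± 0.08; adjusted p = 5.51e-10), to 0.34 below wild type (-0.34 ± 0.08; adjusted p = 0.00307). Cbs, the enzyme just before it in that pathway, gave no call in RAS, MT-HGF or, against untreated cells, AG1478-treated cells (0.04, 0.09 and 0.19), and was 0.29 above wild type after AG1478.

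Serine is made in 3 enzyme steps. Psph, the phosphatase of the last step, rose by 0.50 ± 0.06 and Psat1, the transaminase before it, by 0.49 ± 0.07 in MT-HGF cells, whereas Phgdh, the first enzyme, stood at -0.04 ± 0.07 with no call (95% interval -0.20 to 0.11). After AG1478 they stood at -0.996 ± 0.06, -0.69 ± 0.07 and -0.37 ± 0.07, all called. In RAS cells none of the 3 passed the threshold (-0.16, -0.10 and -0.19, adjusted p = 0.0737, 0.351 and 0.0535).

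Shmt2 and Mthfd2 carry one-carbon units from serine into mitochondrial folate, and Aldh18a1 opens proline synthesis. Mthfd2 rose by 0.79 ± 0.10 in MT-HGF cells and stood at -1.16 ± 0.10 after AG1478, a step that took it below wild type (-0.38, adjusted p = 0.00456). Shmt2 rose by 0.46 ± 0.07 and stood at -0.55 ± 0.07 after AG1478, where its difference from wild type did not pass the threshold (-0.09, adjusted p = 0.356). Aldh18a1 rose by 0.42 in MT-HGF cells, fell by 0.37 in RAS cells and stood at -0.89 after AG1478.

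The amino acid transporters were higher for 4 of 9 and lower for 1 in MT-HGF than in wild-type cells, and higher for 2 and lower for 6 in RAS cells. Against RAS cells 8 of 9 were higher in MT-HGF cells and 0 lower, where 13.4% and 12.6% of all genes were called so. After AG1478 8 of 9 fell with 0 rises, where 9.91% of all genes were called lower and 6.57% higher. The 5 of 9 called in MT-HGF and 8 of 9 in RAS cells stand beside 40.9% and 32.5% of all genes called in either direction. The exception after AG1478 was Slc7a11, which encodes the subunit of the cystine and glutamate exchanger and is also a target of the oxidative stress factor NRF2. Its values were 8.36, 8.31 and 8.55 in wild-type, 8.72, 8.94 and 8.99 in RAS, 10.20, 10.44 and 10.45 in MT-HGF and 10.54, 10.69 and 10.43 in treated cells. Only the last pair of groups overlapped. The rise was 1.96 ± 0.10 log2 units in MT-HGF (adjusted p = 5.11e-11) and 0.48 ± 0.10 in RAS cells (adjusted p = 8.91e-04), and AG1478 gave 0.19 ± 0.10 (95% interval -0.01 to 0.39; adjusted p = 0.202).

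Slc7a3, a cationic amino acid transporter, had 9.45, 9.20 and 9.30 in wild-type, 8.65, 8.68 and 8.94 in RAS, 9.83, 9.69 and 9.66 in MT-HGF and 7.89, 7.84 and 7.65 in treated cells, with no overlap between any groups. It was lower by 1.93 log2 units in treated than in untreated cells (-1.93 ± 0.09; adjusted p = 5.64e-10), the largest change of any member in that comparison. It was higher by 0.41 ± 0.09 in MT-HGF (adjusted p = 0.00165) and lower in RAS than in wild-type cells (-0.56 ± 0.09; adjusted p = 1.44e-04). Its relative Slc7a1 changed less: -0.26 in RAS, 0.02 with no call in MT-HGF, and -0.41 after AG1478.

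Slc1a4 carries alanine, serine and cysteine. Its values were 9.13, 9.14 and 9.16 in wild-type, 8.96, 8.86 and 8.78 in MT-HGF, 8.12, 8.28 and 8.25 in RAS and 8.19, 8.22 and 8.09 in treated cells. Wild type was the highest group, and RAS and treated cells overlapped (-0.05, adjusted p = 0.625). It fell by 0.93 log2 units in RAS (-0.93 ± 0.07; adjusted p = 1.26e-08), by 0.28 in MT-HGF cells (-0.28 ± 0.07; adjusted p = 0.00332) and by 0.70 after AG1478 (-0.70 ± 0.07; adjusted p = 2.03e-06). Slc1a5, the related glutamine transporter, rose instead, by 0.83 ± 0.09 in MT-HGF and 0.30 ± 0.09 in RAS cells, and stood at -0.95 ± 0.09 after AG1478.

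The large neutral amino acid exchanger is made of Slc7a5 and the shared heavy chain Slc3a2. In RAS cells the former stood at -0.26 and the latter at -0.30, both called lower, and neither passed the threshold in MT-HGF cells (0.13 and -0.02). AG1478 gave -0.63 and -0.32, both called. Slc6a9, a glycine transporter, rose by 0.54 ± 0.06 in MT-HGF and fell by 0.48 in RAS cells, and after AG1478 it stood close to wild type (-0.05, adjusted p = 0.557). Slc38a2, the adaptive transporter SNAT2, gave no call in RAS or MT-HGF cells (-0.04 and 0.03) and -0.31 ± 0.06 after AG1478.

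Of the remaining targets, Stc2 had values of 8.60, 8.40 and 8.61 in wild-type, 8.04, 8.02 and 8.09 in RAS, 9.59, 9.61 and 9.47 in MT-HGF and 8.15, 8.11 and 8.12 in treated cells. MT-HGF arrays stood about 1 log2 unit above wild type (1.02 ± 0.07; adjusted p = 3.46e-09), RAS arrays below it (-0.48 ± 0.07; adjusted p = 3.96e-05). In treated cells it was lower than in untreated ones by 1.43 (-1.43 ± 0.07; adjusted p = 6.99e-10), to a level that did not differ from RAS beyond the threshold (0.07, adjusted p = 0.458). Chac1, which encodes an enzyme that breaks down glutathione, rose by 1.06 ± 0.07 in MT-HGF cells, gave no call in RAS cells (0.04) and stood at -0.84 ± 0.07 after AG1478. Vldlr, a lipoprotein receptor gene, stood at -0.39 in RAS, -0.03 with no call in MT-HGF and -0.68 after AG1478.

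**Figure D3:**
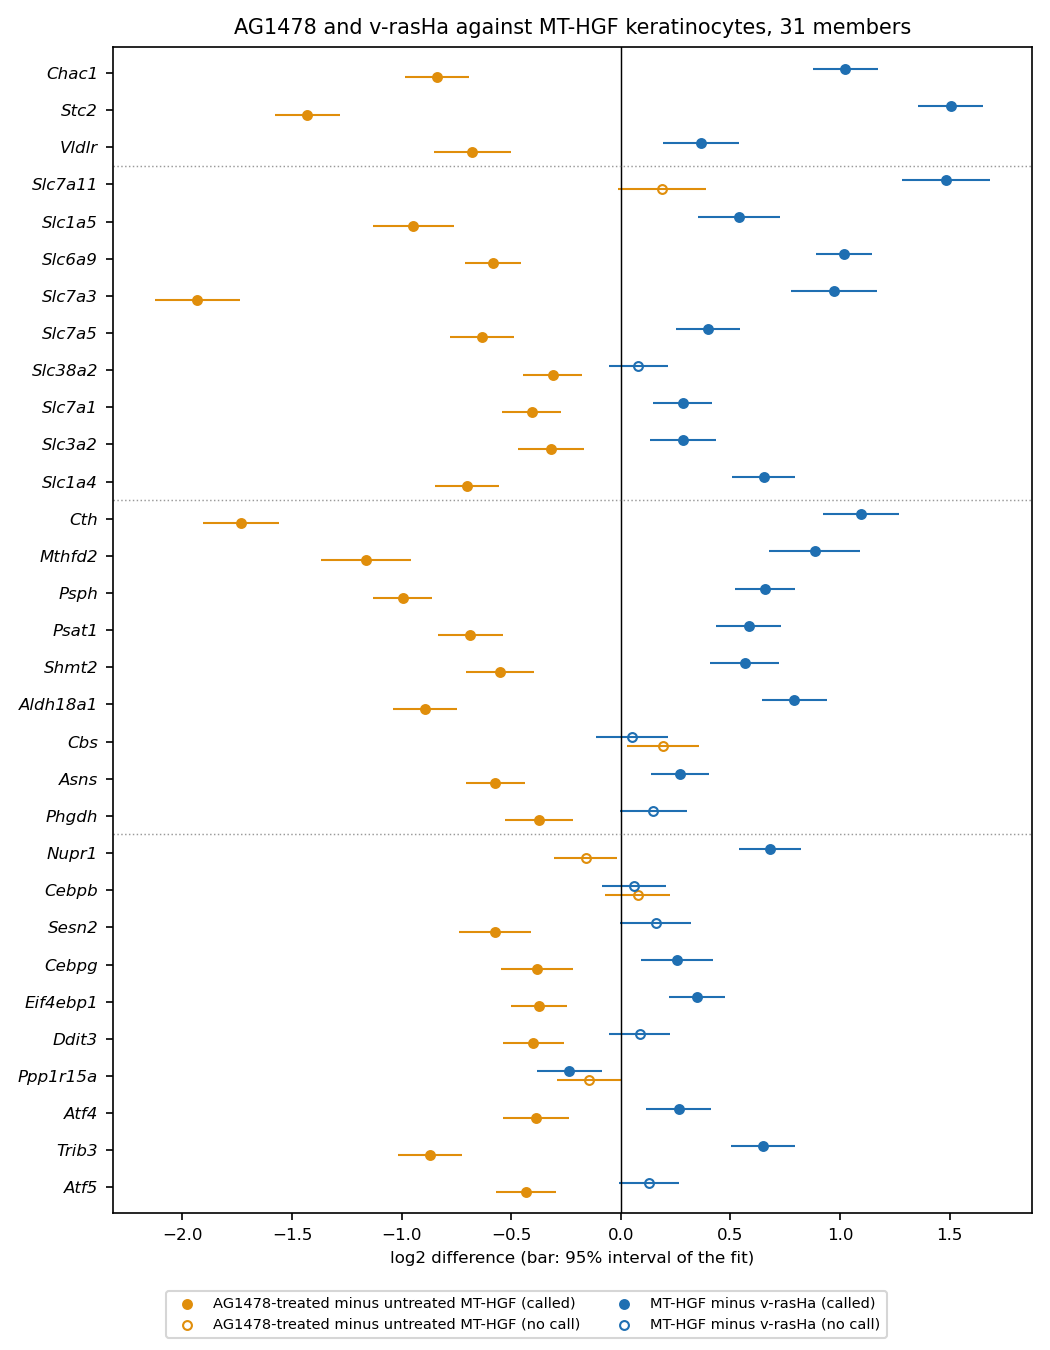
Log2 difference of each of the 31 members (x axis) between AG1478-treated and untreated MT-HGF cells and between MT-HGF and v-rasHa cells, with 95% intervals of the limma fit and filled points for called genes. The comparisons share the untreated MT-HGF arrays, with opposite sign, so they are not independent; 26 members are lower after AG1478, and Slc7a11, Cebpb and Cbs lie to the right of 0 without a call.

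Genes of the same pathway outside the members were read from lists of general knowledge, also chosen with earlier results of these data known. Of 28 further ATF4 targets tested, 15 were higher and 5 lower in MT-HGF than in wild-type cells (median 0.35 log2 units), 7 higher and 9 lower in RAS cells (median -0.13), and 1 higher and 19 lower after AG1478 (median -0.49). In these comparisons 17.1%, 12.6% and 6.57% of all genes were called higher, and 23.9%, 19.9% and 9.91% lower. Ndrg1 (1.37) and the oxidoreductase gene Ero1a (1.30), both also induced by low oxygen, rose most in MT-HGF cells, and Ndrg1 rose by 1.57 in RAS cells. The mitochondrial folate enzyme gene Aldh1l2 (-1.49) and Pck2, the mitochondrial phosphoenolpyruvate carboxykinase gene (-1.04), fell most after AG1478, and Klhl24 was the 1 rise (0.41).

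Cytosolic aminoacyl-tRNA synthetases, which charge tRNAs and are known ATF4 targets, showed 1 of 18 higher and 2 lower in MT-HGF cells (median 0.03), 1 higher and 6 lower in RAS cells (median -0.13), and 15 lower and 0 higher after AG1478 (median -0.38). Cars rose by 0.54 in MT-HGF and 0.41 in RAS cells, and Cars (-0.72) and Lars (-0.66) fell most after AG1478. Of their mitochondrial counterparts 13 of 16 were lower and 0 higher in MT-HGF (median -0.28), 10 lower and 0 higher in RAS (median -0.21) and 3 lower and 0 higher after AG1478 (median -0.08). Of all genes 40.9%, 32.5% and 16.5% were called in these comparisons, and 23.9%, 19.9% and 9.91% were called lower. The cytosolic list's share called in either direction was below that of all genes in MT-HGF cells and near it in RAS cells. For the mitochondrial list it was near it after AG1478. Yars2 (-0.59) and Wars2 (-0.55) fell most in MT-HGF cells.

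The list of eIF2 kinases and of eIF2 and eIF2B subunits also held Gcn1, Impact, Ppp1r15b, Nck1, Eif2a, Eif2d, Denr and Mcts1, which are neither. Of the 19 genes tested, 1 was higher and 7 lower in MT-HGF cells. In RAS cells 3 were higher and 3 lower, and after AG1478 1 was higher and 3 lower, with medians of -0.13, -0.09 and -0.04. Over all genes 40.9%, 32.5% and 16.5% were called in these comparisons, and the list's shares were near these values. The gene of the kinase PERK, Eif2ak3, rose by 0.32 in MT-HGF and 0.33 in RAS cells. Impact, an inhibitor of the amino acid sensing kinase GCN2, fell by 0.68 in MT-HGF and 0.21 in RAS cells. Eif2ak4, which encodes GCN2, fell by 0.19 in MT-HGF and 0.22 in RAS cells. The largest rise and fall of the list in RAS cells were those of Denr (0.36) and the eIF2 subunit gene Eif2s3x (-0.27). After AG1478 the eIF2 beta subunit gene Eif2s2 stood at -0.42, and the other calls were Ppp1r15b (-0.34), Nck1 (-0.23) and Impact (0.19).

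**Figure D4:**
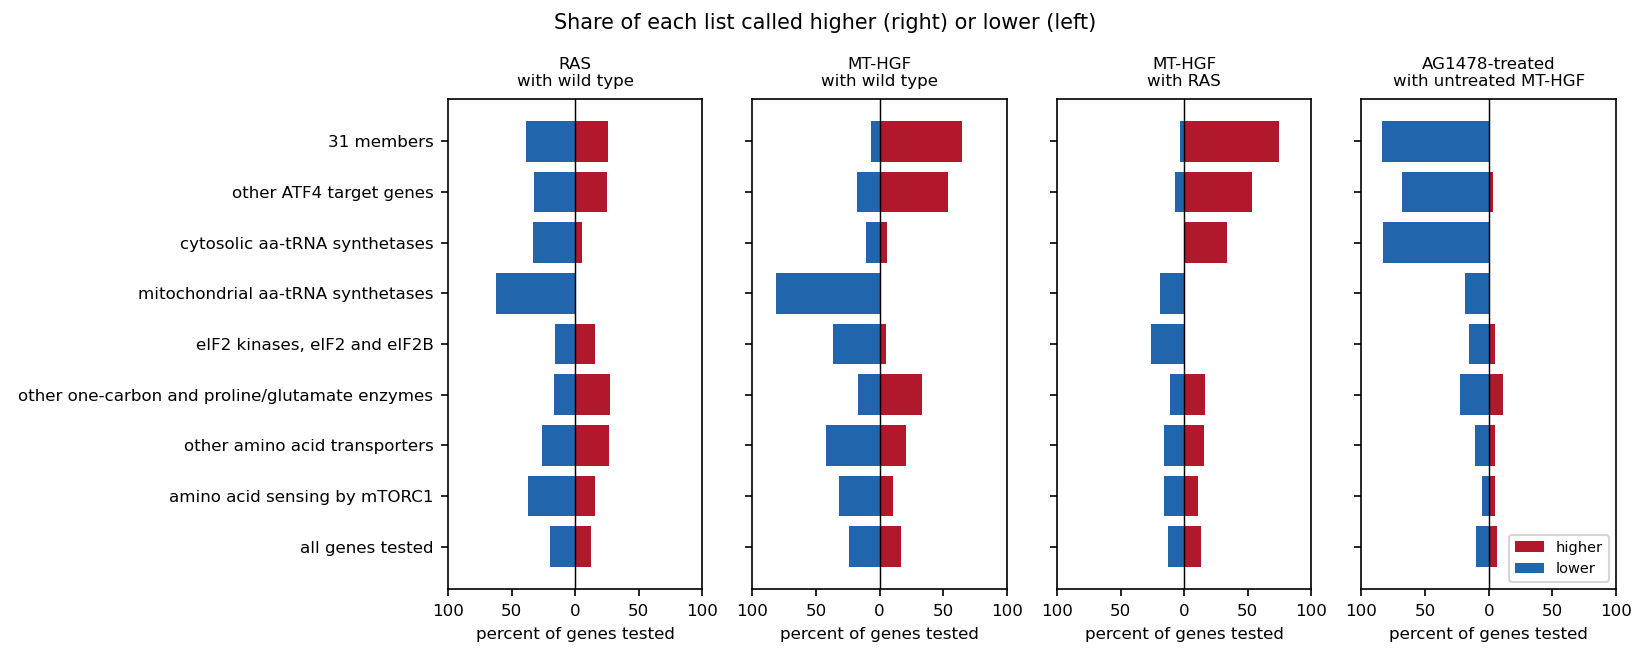
Percent of the tested genes of each list (x axis) called higher (right, red) or lower (left, blue) in 4 comparisons, with all 15868 genes tested in the bottom row. After AG1478 the members (26 of 31), the further ATF4 targets (19 of 28) and the cytosolic aminoacyl-tRNA synthetases (15 of 18) stand on the lower side, where the share over all genes is 9.91%.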

How the data were processed

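The values deposited by the authors are on the log2 scale and come from RMA of Affymetrix Mouse Gene 1.0 ST arrays, per the submitters' processing notes and the labels' protocols, and were not transformed further. RMA quantile-normalizes arrays, so a shift shared by most genes is removed; the sources used here give no version of it. The file held 35511 transcript clusters, 21789 with a single gene symbol, 1621 with several and 12101 not listed in the platform annotation. A cluster had to lie above the 30th percentile of the array on 3 or more of 12 arrays; the brightest kept cluster represented a gene, giving 15868 genes.

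A model with 1 mean per group was fitted by limma 3.58.1 (R 4.3.3) to the 12 arrays together (default eBayes, 8 residual and 8.02 prior degrees of freedom). P-values were two-sided, adjusted by Benjamini-Hochberg over all genes of each of 6 comparisons, and genes called at 0.05. Each difference is first group minus second in log2 units, ± the SE from limma. Array background was each array's 95th percentile over 1261 chemosensory receptor clusters (6.09 to 6.34). The fit was checked on simulated arrays. Older symbols of aminoacyl-tRNA synthetases were matched through RefSeq synonyms or by hand.

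The members and lists were chosen with earlier results of these data known. Values are given array by array for Atf4, Ddit3, Asns and Trib3 and for the 3 largest called rises and falls in each of the 4 main comparisons; from other lists the 2 largest each way could be named. Arrays have no read depth; 3 per group limit the precision. Alternatives covered filters, normalization, weights, variance moderation, arrays in the fit, a replicate block and single arrays left out.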

Additional observations from a re-analysis of the deposited data

Results flagged for a closer look

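Among the members, 4 were called in opposite directions in RAS and in MT-HGF cells against the same wild-type arrays, and the difference between these effects was itself called in limma as MT-HGF with RAS. Of all genes, 32.5% were called in RAS and 40.9% in MT-HGF cells against wild type. The share of all genes with opposite calls was not determined, so whether 4 members are many cannot be told. Stc2 stood at -0.48 in RAS and 1.02 in MT-HGF cells, a difference of 1.505 log2 units (adjusted p = 7.50e-10). Slc6a9 stood at -0.48 and 0.54 (1.02, adjusted p = 6.57e-09), Slc7a3 at -0.56 and 0.41 (0.97, adjusted p = 1.01e-06) and Aldh18a1 at -0.37 and 0.42 (0.79, adjusted p = 4.42e-07). For each of the 4, all 3 MT-HGF arrays lay above all 3 RAS arrays.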

How the results depend on the processing

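All 95 alternative counts, of members called or of members above array background, stayed within 1.5 times the reported count. The members called numbered 18 to 24 for RAS with wild type, 21 to 24 for MT-HGF with wild type, 21 to 24 for MT-HGF with RAS, 26 to 27 for AG1478, 20 to 26 for AG1478-treated MT-HGF with wild type and 15 to 22 with RAS. Leaving out single arrays gave 18 to 22, 21 to 22, 21 to 24, 26 to 26, 20 to 22 and 15 to 18. Same-numbered arrays of different groups correlated at -0.44 to 0.53 in their deviations from the group means, above 0.1 for 7 of 18 pairs. Within the first submission it was above 0.1 for 6 of 9 pairs, and 7 of 9 correlated best with their own number, among them all 3 of RAS and MT-HGF, against 1 of 9 over 0.1 with AG1478-treated arrays. No combination of groups had all 3 pairs over 0.1, so the numbers were not taken to pair the arrays, though the first submission holds a hint of it. With the replicate number as a block the counts were 20, 22, 24, 26, 22 and 20, as without it. With array weights 51% of all genes were called for RAS with wild type, against 32.5%. All 31 members stayed above background under both other background definitions. Of 457 alternative values of single named members, 444 kept direction and call, 13 kept direction only (Ddit3, Asns, Atf4 and Ppp1r15a, each with 1 array left out) and 0 reversed.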

Other observations

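Of 19 tested amino acid transporters outside the members, 4 were higher and 8 lower in MT-HGF than in wild-type cells, and 1 was higher and 2 lower after AG1478 (Slc43a2 at 0.87, Slc38a1 at -0.89 and Slc6a14 at -0.40), where 40.9% and 16.5% of all genes were called. Slc6a14, a broad-range neutral and cationic amino acid transporter gene, was not above background in wild-type cells. Against them it was at least 7.04-fold higher in MT-HGF cells and at least 2.16-fold higher in RAS cells, bounds set by the array background.

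Sensors and regulators of mTORC1 had 2 of 19 higher and 6 lower in MT-HGF cells, 3 higher and 7 lower in RAS cells, and 1 higher and 1 lower after AG1478. Over all genes 40.9%, 32.5% and 16.5% were called in these comparisons. Castor1, an arginine sensor gene, stood at -0.85 in MT-HGF and -0.89 in RAS cells, and its relative Castor2 at 0.72 and 0.71. Sesn1 rose by 0.59 after AG1478, where the member Sesn2 fell by 0.58.

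Other enzymes of one-carbon, proline and glutamate metabolism had 6 of 18 higher and 3 lower in MT-HGF cells and 2 higher and 4 lower after AG1478, where 40.9% and 16.5% of all genes were called. Bcat1, a branched-chain aminotransferase gene, rose by 0.51 in MT-HGF cells and fell by 1.23 after AG1478. Arg1, the arginase gene, rose by 2.04 in MT-HGF and 1.68 in RAS cells.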
